A study of Rattus norvegicus with 16 samples.

Results

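The metalloproteinase genes of rat glomeruli were followed through puromycin aminonucleoside nephrosis and its treatment with either of 2 drugs. The genes were those whose symbol begins with Mmp, Adam, Adamts, Adamtsl or Timp followed by a digit and that had at least 10 reads in at least 4 of the 16 libraries. Of 36351 genes in the table, 77 matched the names and 51 met the count threshold. They comprised 16 Adamts, 15 Adam, 5 Adamtsl, 5 secreted Mmp, 6 membrane Mmp and 4 Timp genes. Of the 51, 48 had 10 reads in every library, and the members closest to the threshold were Adam11, Adamts4 and Adam32, with 10 reads in 6, 11 and 14 libraries. None of the other 26 genes had 10 reads in any library, and their highest count was 6.

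The 4 groups held 4 rats each. The groups named PAN, PAN+MP and PAN+Pio had received 50 mg/kg puromycin aminonucleoside, a podocyte toxin that gives rats a nephrotic syndrome, into the tail vein on day 0. PAN+MP rats then had 15 mg/kg of the glucocorticoid methylprednisolone each day by intraperitoneal injection. PAN+Pio rats had 10 mg/kg of pioglitazone, an agonist of the nuclear receptor PPARγ, each day by mouth. PAN and sham rats had the vehicle by mouth daily, so methylprednisolone and its route cannot be told apart. What sham rats received in place of the toxin, and the strain, sex and age of the rats, are not given in the sources used here. Glomeruli were isolated on day 11, and RNA depleted of ribosomal and globin transcripts was sequenced.

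Matrix metalloproteinases (Mmp) are zinc endopeptidases that cut collagens and other matrix proteins. They are made as inactive precursors and are either secreted or held in the plasma membrane. Adam proteinases are membrane proteins, several of which release growth factors, cytokines and receptors from the cell surface. The secreted Adamts enzymes process procollagens and cleave proteoglycans such as versican and aggrecan, and the Adamtsl proteins resemble them but lack the catalytic domain. Timps are small secreted proteins that block the active site of these enzymes. In the glomerulus, mesangial cells, podocytes and invading macrophages are known sources of several of them, and the balance of enzymes and inhibitors sets the turnover of the basement membrane and the mesangial matrix.

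The libraries held 22802109 to 32571877 counted reads, of which 0.324% to 0.444% fell on the 51 genes. Levels are given as CPM, the read count divided by the library size after TMM scaling, and group levels as mean ± SD over 4 rats. Libraries are named by group and a number, which carries no pairing. Markers of podocytes were abundant in every library, with a summed level of 18105.7 to 32106.5 CPM over 7 genes. The 12 markers listed for the proximal tubule, which lies outside the glomerulus, were present in every library. Their sum varied most within PAN, from 1936 CPM in PAN library 2 to 7171 CPM in PAN library 3. Lrp2 was the highest of them in every library, at 1067 CPM in PAN library 2 and 2884 CPM in PAN library 3. Whether its reads came from tubule cells was not tested. No tubule marker passed the test between PAN and sham rats, where 2 of 12 had an unadjusted p under 0.05.

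Promoter sequences are shown for 4 genes on which results below turn. Adamts14 and Adamts3 belong to 1 subgroup of procollagen-processing enzymes and moved in opposite directions, Mmp12 was among the genes that fell most under both drugs, and Mmp15 was the member called between the drugs. The 250 bases before the annotated start of each are printed in the direction of transcription, from RefSeq on build GRCr8. Adamts14 lay at chr20:29762683-29762932 on the minus strand, Adamts3 at chr14:18514999-18515248 on the plus strand, Mmp12 at chr8:12866402-12866651 on the plus strand and Mmp15 at chr19:9691001-9691250 on the minus strand. Capitals mark GC boxes (GGGCGG on either strand) in Adamts14 and Adamts3, an AP-1 element (TGANTCA) and a TATA box (TATAAA) in Mmp12, and a GC box and the letters AGAACA, which occur within glucocorticoid response elements, in Mmp15.
Adamts14: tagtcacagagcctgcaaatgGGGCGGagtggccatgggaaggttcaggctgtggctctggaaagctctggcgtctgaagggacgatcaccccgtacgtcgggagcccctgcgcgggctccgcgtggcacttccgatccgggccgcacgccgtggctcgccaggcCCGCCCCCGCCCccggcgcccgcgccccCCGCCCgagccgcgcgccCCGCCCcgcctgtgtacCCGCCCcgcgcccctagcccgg
Adamts3: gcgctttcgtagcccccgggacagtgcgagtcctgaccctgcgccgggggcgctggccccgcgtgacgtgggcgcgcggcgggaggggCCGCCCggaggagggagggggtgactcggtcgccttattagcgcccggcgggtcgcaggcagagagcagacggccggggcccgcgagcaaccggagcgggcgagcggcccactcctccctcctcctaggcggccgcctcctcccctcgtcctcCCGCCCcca
Mmp12: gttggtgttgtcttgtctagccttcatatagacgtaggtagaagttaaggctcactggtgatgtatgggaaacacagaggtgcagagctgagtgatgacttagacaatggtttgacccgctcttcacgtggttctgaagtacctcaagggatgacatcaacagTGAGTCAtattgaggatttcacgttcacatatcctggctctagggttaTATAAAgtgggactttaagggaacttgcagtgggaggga
Mmp15: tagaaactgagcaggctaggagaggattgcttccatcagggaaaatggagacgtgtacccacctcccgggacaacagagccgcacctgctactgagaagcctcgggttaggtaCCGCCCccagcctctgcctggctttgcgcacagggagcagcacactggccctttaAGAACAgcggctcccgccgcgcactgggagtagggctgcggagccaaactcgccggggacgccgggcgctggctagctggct
The Adamts14 stretch held 6 GC boxes and the Adamts3 stretch 2. Their part in the changes of these genes was not tested. RefSeq promoters were matched for 36 of the 51 genes, with 40 starts in all, and were searched on both strands. GC boxes occurred in 62.5% of the 40 and in 30.5% of all 33469 promoters of the same length. The TATA letters occurred in 20% against 12.9%, the AP-1 letters in 5% against 6.34%, and AGAACA in 15% against 17.5%. Besides Mmp12, the AP-1 letters were found in Adam19. The full glucocorticoid response element and the direct repeat bound by PPAR, both searched without mismatches, were found in none of the 40, and in 0.012% and 0.0508% of all promoters. A missing match says only that these letters are not in the window.

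In nephrotic rats, 12 of the 51 genes were higher than in sham rats and 2 were lower, at an adjusted p under 0.05 in edgeR's quasi-likelihood test, adjusted by the Benjamini-Hochberg method over all genes. Of all 17061 genes tested, 18.9% passed, 10.4% higher and 8.52% lower, against 27.5% of the members. The higher genes were Adamts14, Adamts4, Adam12, Mmp12, Adamts8, Timp2, Adamts12, Adamtsl4, Adamts9, Mmp14, Timp1 and Mmp2. The lower genes were Adamts18 and Adamts3. Without overlap of the 4 libraries a group, 15 members lay above sham and 2 below, against 11.2% and 9.32% of all genes. The median log2 fold change was 0.19 over the members and 0.01 over all genes. Because whole glomeruli were sequenced, a lower value may mean fewer cells of a type or less RNA per cell, and the same holds for a higher one, and these cannot be told apart. Of 7 podocyte markers, 3 were lower and 1 higher in PAN (median log2 difference -0.36), and their sum was 18105.7 to 27618.5 CPM against 19562.8 to 32106.5 in sham. Of 3 fibroblast markers tested, 1 was higher (median log2 difference 1.23), and the 4 listed summed to 6.60 to 32.0 CPM in PAN and 6.43 to 14.1 in sham. Their part in these results was not tested.

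With methylprednisolone, 2 members were higher than in untreated PAN rats and 13 lower, where 8.62% of all genes passed, 3.31% higher and 5.31% lower. With pioglitazone, 2 were higher and 9 lower, where 3.68% of all genes passed, 0.832% higher and 2.85% lower. Methylprednisolone lowered Adamts14, Mmp12, Adam12, Adamts4, Mmp15, Mmp2, Adamts12, Adamtsl2, Adam19, Adamts5, Timp2, Mmp14 and Adamts9 and raised Adamts3 and Mmp23. Pioglitazone lowered Adamts14, Mmp12, Adam12, Adamts12, Mmp2, Mmp14, Timp2, Timp1 and Adamts5 and raised Adamts3 and Mmp23. Without overlap, 2 members lay above PAN and 14 below with methylprednisolone, against 7.15% and 8.62% of all genes, and 3 above and 12 below with pioglitazone, against 4.27% and 6.42%. The contrast with sham and both drug contrasts use the same 4 PAN libraries, so a PAN library that stands apart moves all of them. Leaving out 1 library left 3 to 12 members changed with pioglitazone, 3 of them without PAN library 2 or without PAN+Pio library 4 and 4 without PAN+Pio library 2. The median log2 fold change of the members was -0.25 with methylprednisolone and -0.22 with pioglitazone, and over all genes it was -0.00 in both.

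**Figure D1:**
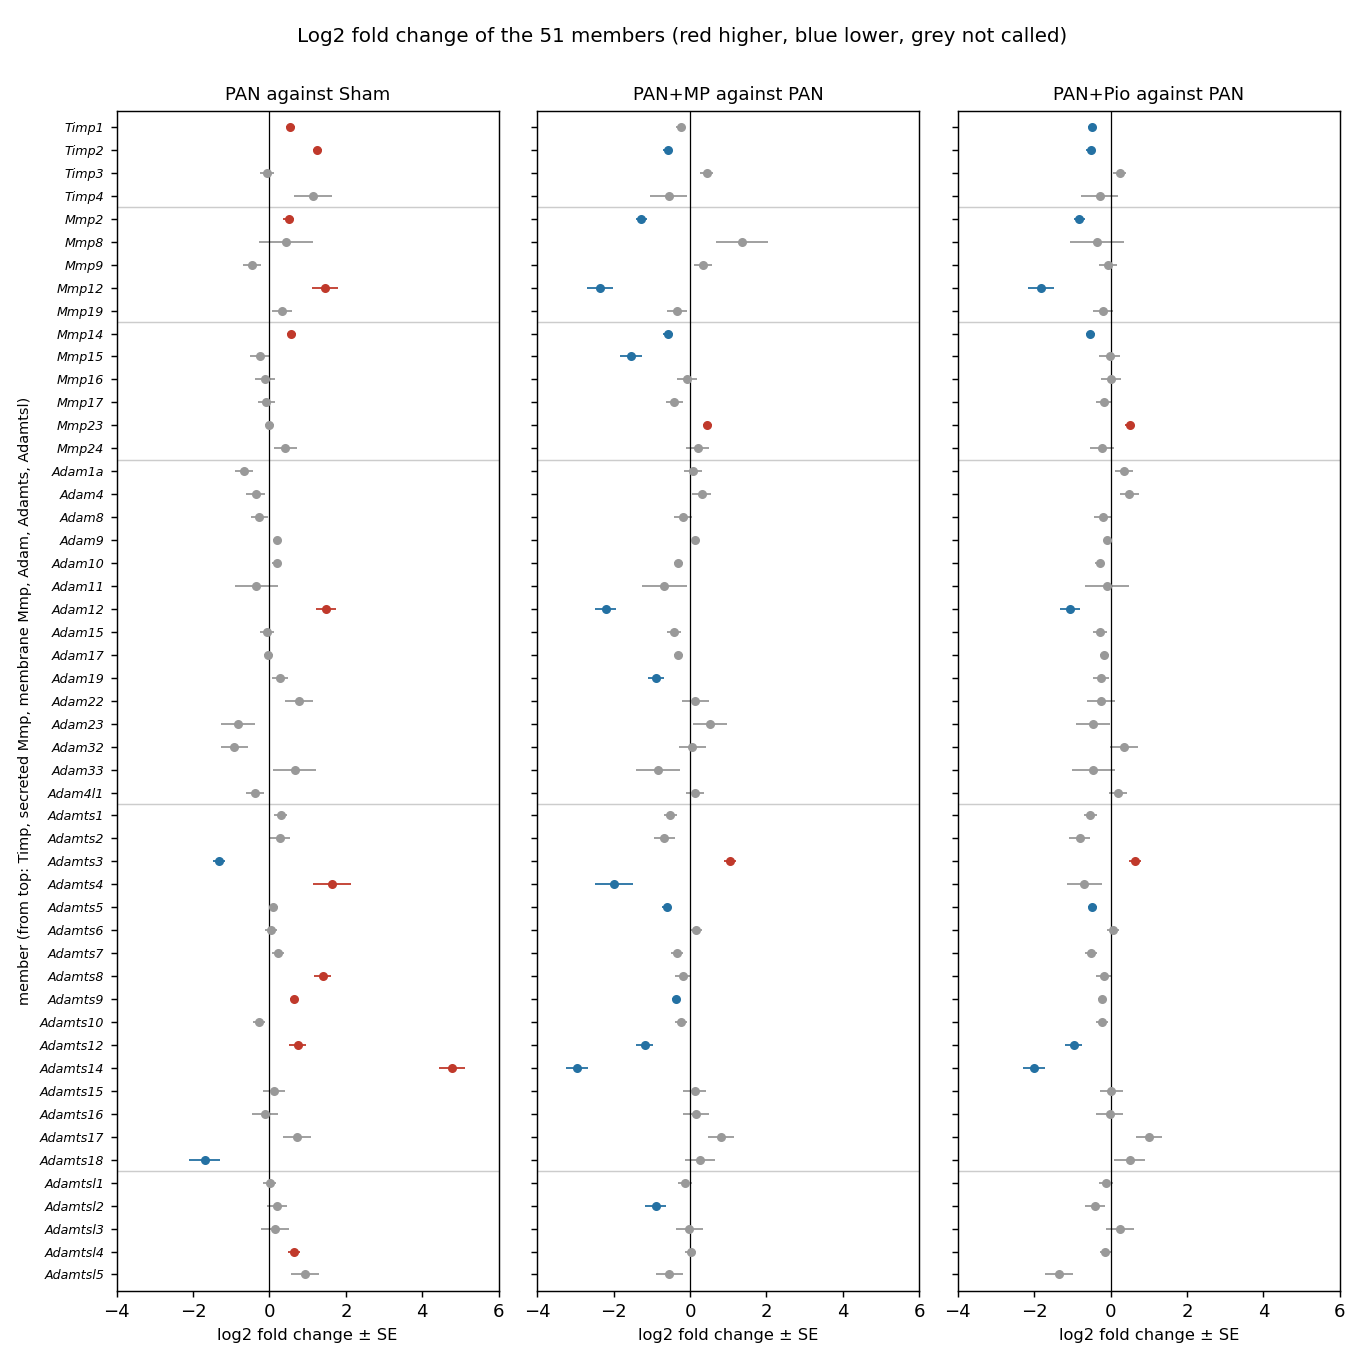
Log2 fold change ± SE of each of the 51 members in the 3 comparisons PAN against Sham, PAN+MP against PAN and PAN+Pio against PAN, ordered by subfamily from Timp at the top to Adamtsl at the bottom. Red points passed the threshold and were higher, blue points passed and were lower, and grey points did not pass. Adamts14 lies farthest to the right in PAN, at 4.78, and farthest to the left under both drugs, at -2.96 and -2.01.

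By subfamily, 7 of 16 Adamts genes changed in PAN, as did 2 of 4 Timp, 2 of 5 secreted Mmp, 1 of 6 membrane Mmp, 1 of 5 Adamtsl and 1 of 15 Adam genes, where 18.9% of all genes passed. The shares of the Adamtsl and membrane Mmp genes lie near that of all genes. The summed level of the Adamts genes was 1021 ± 22.8 CPM in sham and 1298 ± 131 CPM in PAN rats, and 928 ± 123 and 963 ± 115 CPM with methylprednisolone and pioglitazone. All 4 PAN libraries, at 1136 to 1439.9 CPM, lay above the sham libraries, at 996 to 1045 CPM. The summed Adam genes stood at 927 ± 99.4 CPM in sham and 1008 ± 115 CPM in PAN rats, with overlapping libraries. For the Timps the sums were 747 ± 114 CPM in sham and 926 ± 105 CPM in PAN rats, and 1002 ± 225 and 912 ± 61.0 CPM with the drugs, and these overlapped between sham and PAN. Secreted Mmps summed to 416 ± 96.4 CPM in sham and 331 ± 63.7 CPM in PAN, and membrane Mmps to 257 ± 36.1 and 260.0 ± 21.7 CPM, both with overlap. Mmp9 was the most counted secreted Mmp and Timp3 the most counted Timp. The mean of Timp3 did not rise with the Timp sum in PAN, whereas that of Timp2 went from 139 ± 10.9 to 332 ± 41.0 CPM.

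The procollagen N-proteinases Adamts2, Adamts3 and Adamts14 remove the amino-terminal propeptide of fibrillar collagens. Adamts14 was at 1.94, 3.32, 2.76 and 1.64 CPM in the sham libraries and at 84.5, 86.0, 47.3 and 46.9 CPM in the PAN libraries. With methylprednisolone it was at 8.73, 10.8, 7.26 and 7.15 CPM, and with pioglitazone at 19.7, 8.40, 18.9 and 18.6 CPM. All PAN libraries were far above the sham libraries, and both drug groups lay between, overlapping neither sham nor PAN. The level was 27.4-fold higher in PAN than in sham rats, 7.80-fold lower with methylprednisolone than in PAN (log2 fold change -2.96 ± 0.29 (SE), edgeR adjusted p = 1.21e-05) and 4.03-fold lower with pioglitazone (-2.01 ± 0.28, adjusted p = 0.00180). It stayed above sham under methylprednisolone, by 1.81 ± 0.31 (adjusted p = 0.00375), and under pioglitazone, by 2.76 ± 0.31 (adjusted p = 1.96e-04). The difference between the drugs, 0.95 ± 0.28 higher with pioglitazone, did not pass the test (adjusted p = 0.206). PAN+Pio library 2, at 8.40 CPM, was the only one of its group within the range of methylprednisolone, and without it the difference was 1.17 with an edgeR adjusted p of 0.0457.

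Adamts3, which also activates the lymphatic growth factor VEGF-C, went the other way. Its sham libraries were at 9.51, 11.9, 8.01 and 9.04 CPM and its PAN libraries at 4.02, 3.37, 3.79 and 4.23 CPM. Under methylprednisolone the values were 6.49, 7.34, 8.59 and 9.57 CPM and under pioglitazone 5.07, 5.60, 6.64 and 6.62 CPM. The PAN libraries lay below those of all the other groups. Adamts3 fell in PAN by 1.32 ± 0.16 on the log2 scale (edgeR adjusted p = 5.74e-05) and rose by 1.05 ± 0.16 with methylprednisolone (adjusted p = 4.21e-04) and by 0.63 ± 0.16 with pioglitazone (adjusted p = 0.0363). The rise with pioglitazone missed the threshold without PAN library 1, 2 or 3 or PAN+Pio library 2, 3 or 4 (adjusted p of 0.0680 to 0.118). With pioglitazone it was still below sham, by -0.68 ± 0.16 (adjusted p = 0.0222), and with methylprednisolone the difference from sham was -0.27 ± 0.15, with a 95% interval of -0.59 to 0.06. Adamts2 was at 2.13 ± 0.465 CPM in sham and 2.56 ± 0.758 CPM in PAN rats and passed in no comparison. The 3 enzymes of the subgroup gave 1 gene up, 1 down and 1 without a call in PAN.

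Of 6 proteoglycan-cleaving Adamts genes, 3 rose in PAN and none fell, where 10.4% of all genes were higher and 8.52% lower. The group was chosen with earlier results of these data known. Adamts8, an enzyme also described as an inhibitor of vessel growth, was at 72.3, 59.6, 60.8 and 69.4 CPM in sham and 243, 126, 166 and 154 CPM in PAN libraries. It remained at 114, 114, 184 and 192 CPM with methylprednisolone and 164, 123, 197 and 130.3 CPM with pioglitazone, and every library of the 3 toxin-treated groups exceeded every sham library. The rise in PAN was 1.39 ± 0.22 (edgeR adjusted p = 4.00e-04). The drug groups differed from PAN by -0.19 ± 0.21 and -0.17 ± 0.21, neither of which passed, with 95% intervals of -0.64 to 0.26 and -0.62 to 0.28. Against sham they were still higher by 1.20 ± 0.22 (adjusted p = 0.00499) and 1.23 ± 0.22 (adjusted p = 0.00513).

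Adamts9, a versican-cleaving enzyme, was at 61.2, 69.9, 69.5 and 64.5 CPM in sham and at 117, 118, 85.2 and 92.7 CPM in PAN libraries. The PAN values were all higher and were split, with libraries 1 and 2 above libraries 3 and 4. The rise was 0.64 ± 0.10 (edgeR adjusted p = 5.16e-04), and methylprednisolone lowered it by 0.36 ± 0.10 (adjusted p = 0.0373), with 2 drug libraries inside the PAN range and the call lost without PAN library 1 or 2 or PAN+MP library 1, 2 or 3 (adjusted p of 0.0561 to 0.131). Under pioglitazone the difference from PAN was -0.23 ± 0.10 and did not pass. The aggrecan-cleaving Adamts4 was near the lower limit of counting, at 0.484, 0.575, 0.186 and 0.117 CPM in sham, 0.925, 0.890, 1.21 and 1.14 CPM in PAN, 0.254, 0.0311, 0.285 and 0.466 CPM with methylprednisolone and 0.789, 0.806, 0.489 and 0.492 CPM with pioglitazone. The PAN libraries lay above all others, with a rise of 1.63 ± 0.50 (adjusted p = 0.0315) and a fall with methylprednisolone of -1.99 ± 0.49 (adjusted p = 0.0187). The first call was lost without Sham library 3 or 4 or PAN library 3 or 4 (adjusted p of 0.0658 to 0.0871) and the second without PAN+MP library 3 (adjusted p = 0.0532). Whether the counting used strand is not given in the sources used here, and the Adamts4 counts may include reads of an overlapping gene, whose part was not tested.

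Adamts5, the other main aggrecan-cleaving enzyme, had no call in PAN but was lower under both drugs. It was at 271, 267, 322 and 295 CPM in sham, 300.0, 377, 246 and 319 in PAN, 177, 211, 228 and 199 with methylprednisolone and 193, 235, 236 and 227 with pioglitazone. All libraries of both drug groups were below all PAN libraries, while sham and PAN libraries overlapped. The falls were -0.61 ± 0.12 (edgeR adjusted p = 0.00385) and -0.48 ± 0.12 (adjusted p = 0.0346), and with methylprednisolone Adamts5 was also below sham (-0.50 ± 0.12, adjusted p = 0.0165). With pioglitazone the call was lost without PAN library 1, 2 or 4 or PAN+Pio library 1, 2, 3 or 4 (adjusted p of 0.0522 to 0.120). Adamts1, a versican-cleaving enzyme, showed PAN libraries of 404 to 509 CPM, all above the sham range of 349 to 395 CPM, without passing (adjusted p = 0.223). Its values under the drugs, 317 ± 67.7 and 314 ± 88.1 CPM, differed from PAN by -0.52 ± 0.17 (adjusted p = 0.0706) and -0.53 ± 0.17 (adjusted p = 0.102). In the authors' deposited table these last 2 comparisons of Adamts1 carry adjusted p-values of 0.0345 and 0.0499. With pioglitazone the difference was -0.74 and passed without PAN+Pio library 3 (edgeR adjusted p = 0.0128).

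Adamts12, which cleaves cartilage oligomeric matrix protein, was at 13.1, 15.3, 26.1 and 21.6 CPM in sham, 26.7, 41.7, 29.9 and 28.7 in PAN, 12.8, 10.6, 12.7 and 19.6 with methylprednisolone and 17.2, 14.4, 19.8 and 13.5 with pioglitazone. The PAN libraries were above all others, and the drug groups overlapped sham. It rose in PAN by 0.74 ± 0.23 (edgeR adjusted p = 0.0325) and fell with methylprednisolone (-1.19 ± 0.23, adjusted p = 0.00329) and with pioglitazone (-0.97 ± 0.23, adjusted p = 0.0252). The call in PAN was lost without Sham library 1 or 2 or PAN library 2 or 3 (adjusted p of 0.0619 to 0.103), and the one with pioglitazone without PAN library 2 or PAN+Pio library 1, 2 or 4 (adjusted p of 0.0549 to 0.0914). Its relative Adamts7, at 3.41 ± 0.256 and 3.97 ± 0.373 CPM, passed in no comparison. Adamts18 was the member that fell most in PAN. Its sham libraries were spread over 58.5, 51.9, 24.3 and 16.8 CPM and overlapped the PAN libraries at 18.7, 8.49, 10.7 and 8.80 CPM, with a fitted change of -1.70 ± 0.40 (adjusted p = 0.00821). It was also below sham with methylprednisolone (-1.43 ± 0.40, adjusted p = 0.0308), while with pioglitazone the difference of -1.20 ± 0.40 did not pass (adjusted p = 0.0882) unless Sham library 4 was left out (-1.46, adjusted p = 0.0398).

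**Figure D2:**
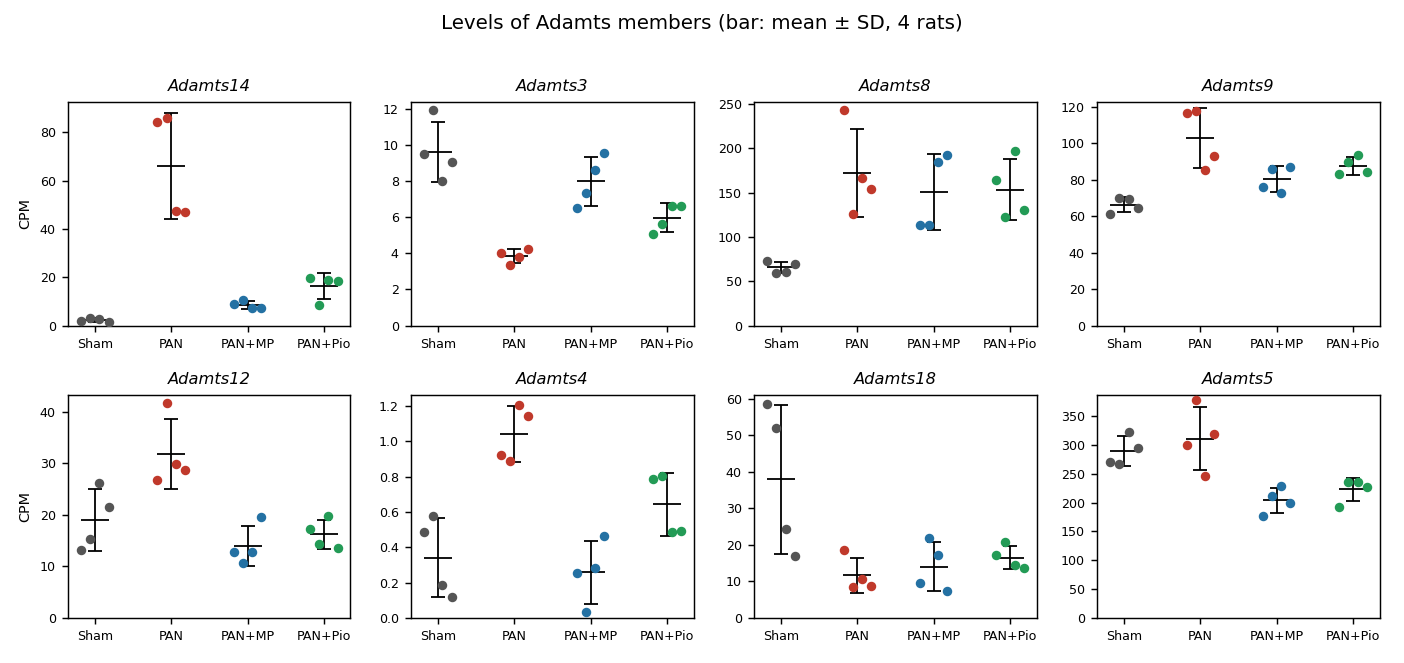
CPM of 8 Adamts genes in each of the 16 libraries, with points for rats and bars for mean ± SD of 4 rats; each panel has its own axis from 0. Adamts14 separates PAN from every other group, Adamts3 shows the reverse pattern, and Adamts8 is raised in all 3 toxin-treated groups.

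Adamts17 and Adamts10 were picked out after their values were seen, because they passed only against sham. Adamts17 was at 0.616, 0.929, 0.857 and 0.779 CPM in sham, 1.21, 1.11, 1.59 and 1.33 in PAN, 2.10, 3.82, 2.12 and 1.18 with methylprednisolone and 1.83, 1.61, 4.24 and 2.91 with pioglitazone. Every library of the toxin-treated groups lay above the sham libraries. The calls were those of methylprednisolone against sham (1.53 ± 0.36, edgeR adjusted p = 0.0156) and pioglitazone against sham (1.73 ± 0.36, adjusted p = 0.0135), and PAN against sham did not pass (0.72 ± 0.37, adjusted p = 0.182). Adamts10, which acts on fibrillin microfibrils, was lower with methylprednisolone than in sham (-0.51 ± 0.16, adjusted p = 0.0427), at 84.8 ± 10.3 against 121 ± 19.0 CPM with overlap. The Adamts17 call with methylprednisolone was lost without Sham library 1 or PAN+MP library 2 (adjusted p of 0.0536 to 0.0556) and the one with pioglitazone without Sham library 1 (adjusted p = 0.0531), and the Adamts10 call was lost without Sham library 1, 3 or 4 or PAN+MP library 1, 2 or 4 (adjusted p of 0.0536 to 0.113). Adamts6, Adamts15 and Adamts16 had no call in any comparison.

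Among the 8 Adam genes with known sheddase or related proteolytic activity, Adam12 was the one called higher in PAN, and the result for Adam19 rested on 1 sham library. Adam12 releases heparin-binding EGF-like growth factor and is expressed in mesenchymal cells. It was at 18.9, 18.3, 25.9 and 14.4 CPM in sham, 48.9, 74.1, 49.8 and 44.8 in PAN, 19.3, 8.24, 9.67 and 10.1 with methylprednisolone and 32.4, 29.5, 23.7 and 17.8 with pioglitazone. PAN libraries were above all others, and both drug groups overlapped sham. The rise was 1.49 ± 0.27 (edgeR adjusted p = 0.00113), and the falls under the drugs were -2.20 ± 0.27 (adjusted p = 5.87e-05) and -1.07 ± 0.26 (adjusted p = 0.0309), the latter lost without PAN library 1, 2 or 3 or PAN+Pio library 2, 3 or 4 (adjusted p of 0.0515 to 0.117). With pioglitazone the level was higher than with methylprednisolone by 1.13 ± 0.27, which did not pass (adjusted p = 0.0704). Without PAN+MP library 1, the highest of its group, the difference was 1.47 and passed (edgeR adjusted p = 0.0105). The authors' deposited table calls Adam12 between the drugs with an adjusted p of 0.00874, but its log2 fold change there is only 0.0257.

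Adam19, a relative of Adam12, was at 27.3, 29.0, 55.1 and 26.8 CPM in sham, 36.1, 57.7, 32.9 and 40.9 in PAN, 23.4, 23.6, 20.9 and 22.5 with methylprednisolone and 38.7, 36.4, 32.2 and 33.1 with pioglitazone. The methylprednisolone libraries lay below those of all other groups. It fell with methylprednisolone (-0.89 ± 0.21, edgeR adjusted p = 0.0139), and no other comparison passed. The call was lost without PAN library 2 (adjusted p = 0.0533). Sham library 3, at 55.1 CPM, was higher than all but 1 of the 16 libraries. It decided the comparison of PAN with sham, where the difference was 0.28 ± 0.21 (edgeR adjusted p = 0.365) with it and 0.58 (adjusted p = 0.0159) without it. With methylprednisolone Adam19 was also below sham once Sham library 4 was left out (-0.73, adjusted p = 0.0385). The main sheddases Adam10 and Adam17, which release Notch receptors, cytokines and EGF receptor ligands, passed in none of the 6 comparisons. Adam10 was at 137 ± 11.8 CPM in sham and 157 ± 23.3 in PAN, with a log2 difference of 0.19 ± 0.12 and a 95% interval of -0.06 to 0.45. Adam17 was at 326 ± 56.7 and 318 ± 45.8 CPM, a difference of -0.03 ± 0.12 with an interval of -0.28 to 0.21. Adam17 was below sham with methylprednisolone when Sham library 4 was left out (-0.43, edgeR adjusted p = 0.0224), against -0.34 ± 0.12 (adjusted p = 0.0670) with all libraries. Adam9, singled out after its values were seen, was higher with methylprednisolone than in sham by 0.33 ± 0.09 (adjusted p = 0.0279), a call lost without Sham library 1 or 3 or PAN+MP library 2, 3 or 4 (adjusted p of 0.0584 to 0.0910). The 7 other Adam genes, among them the catalytically inactive Adam11, Adam22 and Adam23, had no call. Adam4 and Adam4l1, close relatives by name, both overlap Cox16, and their counts are uncertain.

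Mmp2, Mmp14 and Timp2 form a known activation complex, in which membrane-bound Mmp14 and Timp2 bring secreted proMmp2 to the cell surface for cleavage, while free Timp2 inhibits both enzymes. All 3 genes rose in PAN and fell under both drugs. Timp2 was at 133, 154, 139 and 129.7 CPM in sham, 388, 337, 299.5 and 303 in PAN, 213, 279, 179 and 216 with methylprednisolone and 233, 209, 254 and 229.8 with pioglitazone. The PAN libraries stood above all others, and both drug groups stood above sham without overlap. The falls were -0.58 ± 0.12 (edgeR adjusted p = 0.00579) and -0.52 ± 0.12 (adjusted p = 0.0236), the latter lost without PAN library 1 or 2 or PAN+Pio library 1, 2 or 4 (adjusted p of 0.0564 to 0.0880). Timp2 was still above sham, by 0.68 ± 0.12 (adjusted p = 0.00481) and 0.74 ± 0.12 (adjusted p = 0.00333).

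Mmp14 was at 31.8, 35.2, 44.1 and 39.1 CPM in sham, 46.8, 63.9, 59.4 and 52.5 in PAN, 39.5, 32.3, 35.7 and 41.8 with methylprednisolone and 40.9, 34.1, 41.4 and 37.4 with pioglitazone. Here the drug groups overlapped sham and lay below every PAN library. The rise was 0.57 ± 0.12 (edgeR adjusted p = 0.00377), and the falls were -0.58 ± 0.12 (adjusted p = 0.00583) and -0.53 ± 0.12 (adjusted p = 0.0195). Mmp2, or gelatinase A, was at 26.3, 27.7, 31.3 and 26.7 CPM in sham, 32.3, 50.1, 44.1 and 31.8 in PAN, 18.3, 14.9, 15.2 and 17.0 with methylprednisolone and 26.7, 18.6, 23.6 and 21.2 with pioglitazone. All its PAN libraries were above the highest sham library, libraries 1 and 4 only just, and the methylprednisolone libraries were below every other library of the study. The rise in PAN was 0.50 ± 0.15 (adjusted p = 0.0253) and the falls under the drugs were -1.28 ± 0.15 (adjusted p = 3.33e-05) and -0.81 ± 0.15 (adjusted p = 0.00645). With methylprednisolone Mmp2 was below sham (-0.78 ± 0.15, adjusted p = 0.00658), and with pioglitazone the difference from sham did not pass (-0.31 ± 0.15, adjusted p = 0.203). Leaving out 1 library ended the call of Mmp2 in PAN without Sham library 1 or 4 or PAN library 2 or 3 (adjusted p of 0.0637 to 0.0952) and those of Mmp14 with pioglitazone without PAN library 2 or 3 or PAN+Pio library 2 or 4 (adjusted p of 0.0594 to 0.0782).

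The proportions of reads from Mmp14, Mmp2 and Timp2 also differed between groups. They are RNA values, and the protein complex was not measured. The ratio of Mmp14 to Timp2 reads, compared only between groups, was 0.272 ± 0.0446 in sham, 0.170 ± 0.0348 in PAN, 0.173 ± 0.0388 with methylprednisolone and 0.166 ± 0.00606 with pioglitazone. The sham libraries, at 0.228 to 0.318, were above the PAN libraries, at 0.121 to 0.198. For Mmp2 to Timp2 the ratios were 0.202 ± 0.0192, 0.121 ± 0.0323, 0.0757 ± 0.0151 and 0.0972 ± 0.0117, and the sham libraries were again above all others. These ratios were formed after the values were seen and were not tested. Of 5 mesangial markers, 2 rose in PAN, Acta2 among them, and Acta2 and Itga8 fell under each drug. Gata3, at 108 to 173 CPM in sham and 90.8 to 136 in PAN, did not rise. Pdgfrb, at 375 to 717 and 372 to 626 CPM, did not rise either. The 5 markers summed to 1079 to 1687 CPM in sham and 1235 to 1717 in PAN. The sums were 1015 to 1149 with methylprednisolone and 991 to 1125 with pioglitazone. The part of these markers in the result was not tested.

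**Figure D3:**
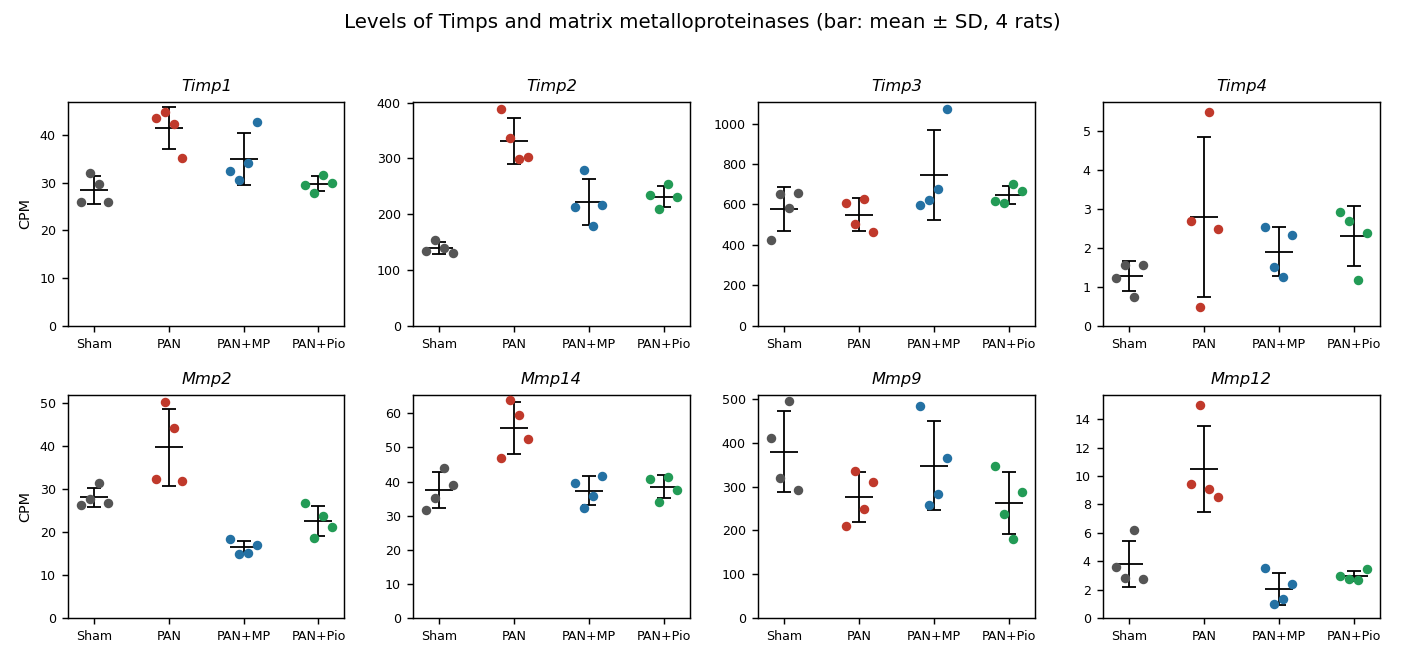
CPM of the 4 Timp genes and of Mmp2, Mmp14, Mmp9 and Mmp12 in each of the 16 libraries, with points for rats and bars for mean ± SD of 4 rats; each panel has its own axis from 0. Timp2 is highest in PAN and stays above sham under both drugs, Mmp2, Mmp14 and Mmp12 are highest in PAN, and the groups overlap for Timp3, Timp4 and Mmp9.

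Timp1, the inducible inhibitor of secreted Mmps, was at 26.1, 32.0, 29.9 and 25.9 CPM in sham, 43.6, 44.9, 42.5 and 35.2 in PAN, 32.4, 30.5, 34.1 and 42.9 with methylprednisolone and 29.6, 27.9, 31.7 and 29.9 with pioglitazone. The PAN libraries were above the sham and pioglitazone libraries, and 1 methylprednisolone library, at 42.9 CPM, lay within the PAN range. It fell with pioglitazone (-0.48 ± 0.11, edgeR adjusted p = 0.0236), a call lost without PAN library 1, 2 or 3 or PAN+Pio library 1, 2 or 4 (adjusted p of 0.0595 to 0.0868). The change with methylprednisolone did not pass (-0.25 ± 0.11, adjusted p = 0.207), but passed without PAN+MP library 4 (-0.36, adjusted p = 0.0461). The test of the difference between the drugs did not pass for Timp1 (-0.23 ± 0.11, adjusted p = 0.591, 95% interval -0.47 to 0.00). Timp3, the matrix-bound inhibitor that also blocks Adam17 and the aggrecan-cleaving Adamts enzymes, was at 579 ± 108 CPM in sham and 550.2 ± 80.5 CPM in PAN and passed in no comparison. PAN+MP library 4 was its highest, at 1074 CPM. Timp4 was low, at 1.23, 1.55, 0.745 and 1.56 CPM in sham and 2.69, 0.482, 5.48 and 2.48 CPM in PAN libraries, and its difference of 1.14 ± 0.50 did not pass (adjusted p = 0.125). PAN library 2, at 0.482 CPM, decided this, since without it the rise was 1.48 with an edgeR adjusted p of 0.0126.

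Timp2 overlaps Cep295nl in the annotation, a gene whose counts were not analysed here, so its part in the Timp2 counts was not tested. Timp1, Timp3 and Timp4 lie within the genes of synapsins, and reads of both strands could be mixed if the counting ignored strand. Syn1 was counted at 30 to 73 reads per library, Syn3 at 34 to 87 and Syn2 at 0 to 6. Neither Syn1 (0.05 ± 0.29) nor Syn3 (-0.22 ± 0.20) passed between PAN and sham. Mmp9, or gelatinase B, whose precursor binds Timp1, was at 412, 320.2, 495 and 292 CPM in sham, 211, 335, 249 and 309.9 in PAN, 484, 258, 282 and 365 with methylprednisolone and 347, 237, 179 and 288 with pioglitazone. All groups overlapped, and the difference between PAN and sham was -0.46 ± 0.23 (edgeR adjusted p = 0.178, 95% interval -0.95 to 0.04). The ratio of Mmp9 to Timp1 reads was 13.4 ± 3.25 in sham and 6.74 ± 1.75 in PAN, with all PAN libraries (4.84 to 8.80) below all sham libraries (10.0 to 16.6). It was 10.0 ± 3.25 with methylprednisolone and 8.88 ± 2.53 with pioglitazone, with libraries of 8.28 to 14.9 and 5.65 to 11.7 that overlapped both sham and PAN. This ratio, too, was formed after the values were seen and was not tested.

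Mmp12, the macrophage elastase, was at 3.57, 2.83, 6.19 and 2.73 CPM in sham, 9.45, 15.1, 9.07 and 8.50 in PAN, 3.51, 0.995, 1.36 and 2.39 with methylprednisolone and 2.95, 2.76, 2.69 and 3.44 with pioglitazone. The PAN libraries were above all others. It rose in PAN by 1.45 ± 0.34 (edgeR adjusted p = 0.00695) and fell with methylprednisolone (-2.35 ± 0.35, 5.11-fold, adjusted p = 3.60e-04) and pioglitazone (-1.83 ± 0.34, 3.55-fold, adjusted p = 0.00756). Macrophage markers moved with it. Of 7 tested, 3 rose in PAN (Csf1r, Cx3cr1 and Mrc1) and 4 fell under each drug (C1qa, C1qb, Csf1r and Cx3cr1). The summed level of 8 markers was 76.1 to 109.7 CPM in sham, 130.4 to 188 in PAN, 54.5 to 105 with methylprednisolone and 64.7 to 98.8 with pioglitazone, and none was at 0 in a group. Their part in the result was not tested. Mmp19, the other low secreted enzyme, stood at 2.81 ± 1.08 and 3.52 ± 0.392 CPM in sham and PAN and passed in no comparison.

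**Figure D4:**
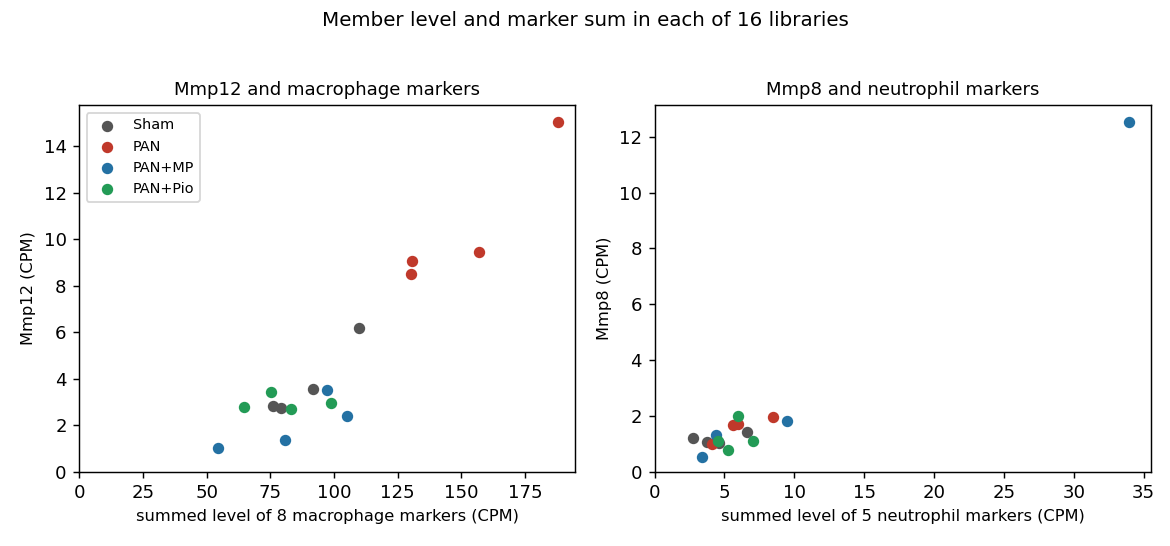
Level of Mmp12 against the summed CPM of 8 macrophage markers (left) and of Mmp8 against the summed CPM of 5 neutrophil markers (right), with 1 point per library. The 4 PAN libraries are highest on both axes for Mmp12, from 8.50 to 15.1 CPM, and PAN+MP library 4 is alone at 12.5 CPM for Mmp8.

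Mmp15, a membrane-type enzyme, was the member called between the drugs. It was at 118, 90.3, 116 and 46.1 CPM in sham, 78.3, 98.9, 60.4 and 74.2 in PAN, 37.5, 27.3, 26.4 and 15.7 with methylprednisolone and 87.7, 81.5, 60.1 and 76.5 with pioglitazone. All methylprednisolone libraries were below all libraries of the other groups, which overlapped each other. It fell 2.92-fold with methylprednisolone against PAN (-1.55 ± 0.28, edgeR adjusted p = 0.00187) and 3.47-fold against sham (-1.79 ± 0.28, adjusted p = 0.00197). Pioglitazone and PAN differed by -0.03 ± 0.27 (95% interval -0.60 to 0.54). In the direct test it was 2.86-fold higher with pioglitazone than with methylprednisolone (1.52 ± 0.28, adjusted p = 0.0261). This was the 1 member called between the drugs, where 0.633% of all genes passed, 0.428% higher and 0.205% lower, and 11 members had an unadjusted p under 0.05. Without overlap, 4 members lay higher with pioglitazone and 2 lower, against 3.58% and 3.39% of all genes. The call was lost without PAN+MP library 2, 3 or 4 or PAN+Pio library 1, 3 or 4 (adjusted p of 0.0516 to 0.108), and over the 8 fits that left out 1 library of either drug group the log2 value ranged from 1.33 to 1.73.

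Mmp23, a membrane-anchored family member, was higher under both drugs. It was at 116, 113, 110.4 and 109.7 CPM in sham, 118, 95.1, 97.9 and 138 in PAN, 141, 141, 154 and 176 with methylprednisolone and 179, 134, 158 and 165 with pioglitazone. The methylprednisolone libraries lay above those of PAN, and 1 pioglitazone library lay within the PAN range. The rises against PAN were 0.45 ± 0.12 (edgeR adjusted p = 0.0243) and 0.50 ± 0.12 (adjusted p = 0.0242). The first was lost without PAN library 2 or 3 or PAN+MP library 3 or 4 (adjusted p of 0.0553 to 0.0768) and the second without PAN library 2 or 3 or PAN+Pio library 1 or 4 (adjusted p of 0.0708 to 0.0815). PAN differed from sham by -0.00 ± 0.12 (95% interval -0.25 to 0.25). Mmp16, Mmp17 and Mmp24 passed in no comparison.

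Of the 5 Adamtsl genes, which encode matrix proteins without protease activity, Adamtsl4 rose in PAN and Adamtsl2 fell with methylprednisolone. Adamtsl4, a fibrillin-binding protein, was at 71.4, 68.6, 63.4 and 66.1 CPM in sham, 142, 88.0, 91.6 and 98.7 in PAN, 105, 107, 100.4 and 113 with methylprednisolone and 114, 90.9, 71.5 and 105 with pioglitazone. All toxin-treated libraries were above the highest sham value, 1 pioglitazone library only just. The rise in PAN was 0.64 ± 0.15 (edgeR adjusted p = 0.00658), and against sham it also passed with methylprednisolone (0.66 ± 0.15, adjusted p = 0.0119). Adamtsl2, a modulator of microfibrils and TGF-β, was at 88.2, 129, 76.1 and 73.8 CPM in PAN and 51.6, 34.7, 49.8 and 60.3 CPM with methylprednisolone, a fall of -0.90 ± 0.26 (adjusted p = 0.0440) with no overlap, lost without PAN library 1, 2 or 3 or PAN+MP library 1, 2, 3 or 4 (adjusted p of 0.0509 to 0.160). Its sham libraries, at 45.1 to 105 CPM, overlapped both groups. Adamtsl5, chosen after its values were seen, was lower in every pioglitazone library (1.70 to 2.24 CPM) than in PAN (2.48 to 6.72 CPM) and missed the threshold (-1.34 ± 0.37, edgeR adjusted p = 0.0570). It passed with DESeq2 (adjusted p = 0.00818), with no low-count filter (0.0475), with only those groups fitted (0.0412), without PAN library 4 (0.0207) and in the authors' deposited table (0.0117).

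**Figure D5:**
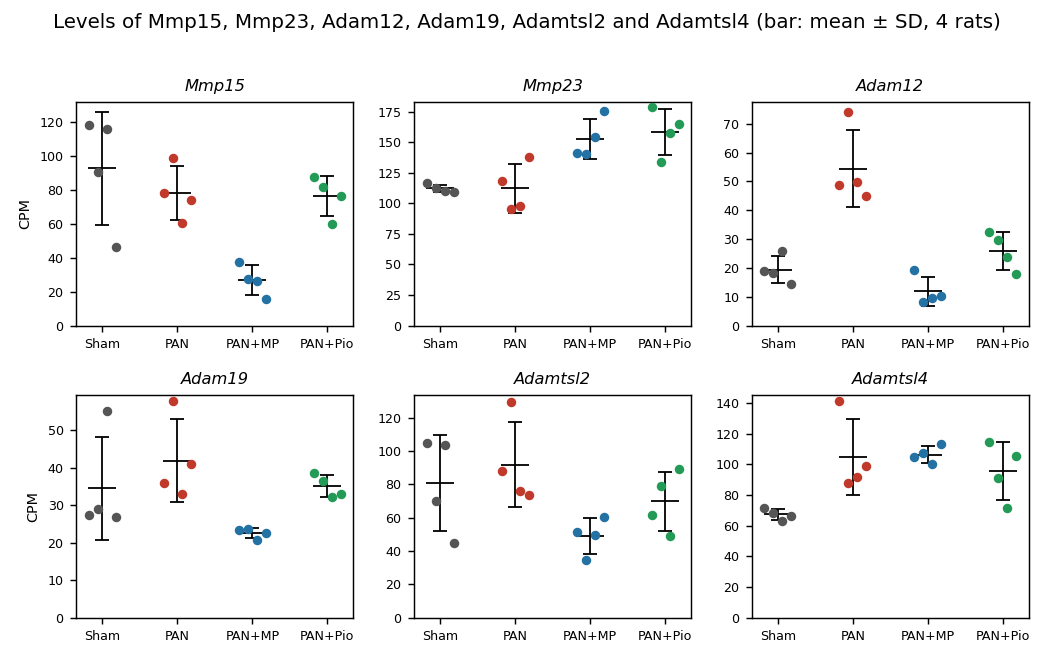
CPM of Mmp15, Mmp23, Adam12, Adam19, Adamtsl2 and Adamtsl4 in each of the 16 libraries, with points for rats and bars for mean ± SD of 4 rats; each panel has its own axis from 0. Mmp15 and Adam19 are lowest in PAN+MP, at 15.7 to 37.5 and 20.9 to 23.6 CPM, Adam12 is highest in PAN, and Mmp23 is raised in both drug groups.

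Treated rats also differed from sham rats. With methylprednisolone, 7 members were above sham and 5 below, where 12.7% of all genes passed, 5.98% higher and 6.72% lower. The higher were Adamts14, Adamts17, Adamts8, Timp2, Adamtsl4, Mmp23 and Adam9, and the lower were Mmp15, Adamts18, Mmp2, Adamts10 and Adamts5. With pioglitazone, 6 were above sham (Adamts14, Adamts17, Adamts8, Timp2, Mmp23 and Adamts9) and Adamts3 was below, where 5.08% of all genes passed, 3% higher and 2.09% lower. Without overlap, 8 members lay above sham and 4 below with methylprednisolone, against 10.6% and 9.95% of all genes, and 7 above and 2 below with pioglitazone, against 7.23% and 6%. Both contrasts share the sham libraries. With methylprednisolone the Adamts18 call was lost without Sham library 1 or 2 or PAN+MP library 1 or 4 (adjusted p of 0.0631 to 0.109) and that of Mmp23 without Sham library 1 or 3 or PAN+MP library 4 (adjusted p of 0.0566 to 0.0816). With pioglitazone the call of Adamts3 was lost without Sham library 1 or 2 or PAN+Pio library 1 (adjusted p of 0.0501 to 0.0808), of Adamts9 without Sham library 1, 3 or 4 or PAN+Pio library 1, 2, 3 or 4 (adjusted p of 0.0526 to 0.113) and of Mmp23 without Sham library 1 or 3 or PAN+Pio library 1, 3 or 4 (adjusted p of 0.0554 to 0.0867). Glomerular endothelial markers differed from sham in the same groups. Of 6, 4 were lower in PAN, 5 with methylprednisolone and 3 with pioglitazone. The summed level was 4589.7 to 6325 CPM in sham and 3077 to 4888 in PAN. It was 3777 to 3877 CPM with methylprednisolone and 3546 to 4115 with pioglitazone, below every sham library. The part of these markers in the results was not tested.

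Genes that regulate these enzymes were read from a list of 29, of which 24 were tested. In PAN, 5 rose and 2 fell, where 18.9% of all genes passed. Serpine2, an inhibitor of serine proteases such as thrombin, went from 30.7 ± 5.16 to 55.3 ± 5.96 CPM (0.85 ± 0.12, edgeR adjusted p = 1.61e-04) and fell under each drug, by 0.82 ± 0.12 and 0.75 ± 0.12 on the log2 scale. Pcolce, which enhances the removal of the carboxy-terminal procollagen propeptide, rose by 0.73 ± 0.21 (adjusted p = 0.0246). Tspan15, a tetraspanin partner of Adam10, fell from 40.3 ± 2.53 to 18.1 ± 2.50 CPM (-1.16 ± 0.11, adjusted p = 1.07e-05) and rose under each drug, by 0.95 ± 0.11 with methylprednisolone and 0.93 ± 0.11 with pioglitazone. Plat, the tissue plasminogen activator, fell in PAN (-0.42 ± 0.11, adjusted p = 0.0165) and rose under each drug. Reck, a membrane inhibitor of Mmps, was at 139 ± 16.5 CPM in sham and 195 ± 36.9 in PAN and did not pass (adjusted p = 0.0514).

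Among 39 substrates of the enzymes, 31 were tested, of which 4 rose and 3 fell in PAN, a share near the 18.9% of all genes. The procollagens Col1a1 (3.94 ± 0.60) and Col3a1 (1.39 ± 0.38, edgeR adjusted p = 0.0183), which the procollagen N-proteinases process, rose, as did the adhesion receptor Cd44 (0.58 ± 0.16, adjusted p = 0.0215). The growth factors Hbegf (-0.96 ± 0.24, adjusted p = 0.0105) and Tgfa (-0.55 ± 0.18, adjusted p = 0.0444), which Adam proteinases release, and the TGF-β binding protein Ltbp1 (-0.56 ± 0.18, adjusted p = 0.0379) fell. With methylprednisolone 5 substrates fell against PAN and none rose, where 8.62% of all genes passed, and with pioglitazone 1 fell, where 3.68% passed. None of 8 other zinc proteases passed between PAN and sham. The median log2 fold changes in PAN were 0.14 for the regulators, 0.03 for the substrates and 0.01 for the other zinc proteases and for all genes.

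Of the 51 genes, 22 passed in at least 1 of the 6 comparisons and 29 in none. The share of all genes that passed in at least 1 was not computed, so these counts do not set the members apart. The genes without a call included 12 of the 15 Adam genes, 2 Timps, Mmp9 and Adamts1. In the authors' deposited table, which gives values for 50 of the 51, 12 members are higher and 3 lower in PAN, 2 higher and 13 lower with methylprednisolone against PAN, and 3 higher and 10 lower with pioglitazone. Shares of all genes were not computed for that table. Of the calls made here, 14 of 14, 14 of 15 and 10 of 11 have the same direction and pass there.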

How the data were processed

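RNA-seq of isolated glomeruli was available for 16 rats, 4 per group, and each library stands for 1 rat. Per the labels' protocols, directional libraries were prepared from total RNA. HTSeq 0.6.1p1, STAR, cutadapt, DESeq2 and the build Rnor_6.0 appear in the submitters' processing notes without their roles, and the strand setting of the counting is not stated there. The deposited table held raw counts per gene, which are whole numbers, for 36351 genes, per the file headers. The authors also deposited log2 fold changes and adjusted p-values for each pair of groups, which were used only where the text names their table. Another 16 per-sample columns of the table were not used. Count columns were matched to groups by their names, and they carry no replicate number. The PAN columns also carry the word high, which the labels do not explain.

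From the counts, 1 model over all 16 libraries was fitted in edgeR 4.0.16 (R 4.3.3) with TMM scaling (factors 0.952 to 1.05), a low-count filter (filterByExpr, minimum count 10) and a term per group, with no covariate. The quasi-likelihood test was adjusted by Benjamini-Hochberg over 17061 genes, and all 51 members passed the filter. The standard error of a log2 fold change is its size divided by the square root of F. The common biological coefficient of variation was 19.4%, and no 2 replicates agreed within sampling noise (lowest chi-square per gene 11.2 over 24 pairs). The steps were tested on simulated data. The members, the gene lists and the functional groups were chosen with earlier results of these data known. Genes were named if called in PAN against Sham, in either drug against PAN or between the drugs, together with the Timps, Mmp2, Mmp9, Mmp14, Adam10, Adam17, Adamts1 and Adamts5, and for the lists the 3 largest calls in each direction in PAN. Some genes that these rules name are not reported here. Other genes in the text were chosen after their values were seen. The alternatives were size factors of DESeq2 1.42.0 (RLE), DESeq2 itself, no low-count filter, 10 counts in every library, a fit of only the groups compared, a proximal tubule score as covariate, leaving out the 2 libraries whose columns carry an extra tag (Sham library 2 and PAN+Pio library 3) and leaving out each library in turn.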

Additional observations from a re-analysis of the deposited data

Results flagged for a closer look

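Of 204 sets of 4 values (51 genes in 4 groups), 7 held a library that stood apart by Dixon's criterion, and chance flags about 5% of such sets. High values were Adam19 in Sham library 3 at 55.1 CPM (others 26.8 to 29.0), Adam23 in PAN library 1 at 7.48 CPM (others 2.29 to 2.78) and Adam33 in PAN+MP library 4 at 15.4 CPM (others 8.19 to 8.84). Low values were Adam9 in PAN+Pio library 2 at 209.8 CPM (others 231.8 to 232.0), Adamts14 in the same library at 8.40 CPM (others 18.6 to 19.7), Adamts16 in PAN library 2 at 2.34 CPM (others 3.92 to 4.26) and Adamts2 in PAN library 4 at 1.45 CPM (others 2.73 to 3.04).

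Mmp15 was higher with pioglitazone than with methylprednisolone by 1.52 on the log2 scale (edgeR adjusted p = 0.0261, no overlap of the 4 libraries a group). Since both drugs are compared with the same PAN libraries, this is also the difference between the 2 contrasts with PAN. Methylprednisolone was injected and pioglitazone given by mouth, so drug and route cannot be told apart. The call was lost without PAN+MP library 2, 3 or 4, without PAN+Pio library 1, 3 or 4 and without the 2 tagged libraries.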

How the results depend on the processing

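For the named genes and for Adamts17, Adamts10, Adam9, Adamtsl5 and Mmp8, 2692 alternative values were compared with the reported ones. Each value was that of 1 gene in 1 comparison under 1 alternative. Of them, 2504 kept the call or its absence, 146 lost the call, 42 gained one and 0 reversed. Direction was compared only where the reported or the alternative value passed. Apart from leaving out single libraries, where it was not computed, no alternative shifted the median log2 fold change of all genes in PAN against Sham by more than 0.02. Leaving out 1 library, the number of members changed ranged from 11 to 15 in PAN against Sham (14 in all), 11 to 16 with methylprednisolone against PAN (15), 3 to 12 with pioglitazone against PAN (11), 7 to 15 with methylprednisolone against Sham (12), 3 to 7 with pioglitazone against Sham (7) and 0 to 2 between the drugs (1). With the tubule score as covariate, 6 members changed with methylprednisolone against Sham, in place of 12, the lost calls being Adam9, Adamts10, Adamts18, Adamts5, Adamtsl4 and Mmp23. Pioglitazone against Sham gave 12 members with DESeq2 and 4 without the tagged libraries, in place of 7. Between the drugs, 2 members changed with DESeq2, with no low-count filter, with only those groups and with the tubule score, and 0 without the tagged libraries. The added gene was Adam12, or Adam19 when only those groups were fitted. The cause of these differences was not tested. The low counts of Adamts4 and Adam11 limit what could be detected for them. No paired analysis was possible because the count columns carry none of the replicate numbers of the sample titles.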

Other observations

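Mmp8, the collagenase of neutrophils, was at 12.5 CPM in PAN+MP library 4 and at 0.529 to 1.99 CPM in the other 15 libraries. The same library had the highest summed level of 5 neutrophil markers, 33.9 CPM, against 2.77 to 9.45 CPM elsewhere. Nearly all of that sum came from S100a9, at 23.5 CPM, and S100a8, at 10.3 CPM. Mpo was at 0 and Ltf at 0.155 CPM in that library, and Elane was at 0 in every library. Mmp8 passed in no comparison. With methylprednisolone against Sham its log2 fold change was 1.79 ± 0.70 (edgeR adjusted p = 0.0980). It became 2.15 with an edgeR adjusted p of 0.0492 without PAN+MP library 2, a fit that kept PAN+MP library 4. Without PAN+MP library 4, Mmp8 was not called. Adam33, a gene of smooth muscle and mesenchymal cells, ranged from 2.44 to 39.7 CPM within the PAN group, wider than in any other group.

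Of the substrates, Col4a1 of the basement membrane (-1.11 ± 0.18, adjusted p = 8.53e-04), Nid1 (-0.75 ± 0.14, adjusted p = 0.00231), Fbn1 (-0.76 ± 0.16, adjusted p = 0.00726), Thbs2 (-0.93 ± 0.22, adjusted p = 0.0131) and Fn1 (-0.79 ± 0.23, adjusted p = 0.0424) fell with methylprednisolone against PAN by edgeR's test. With pioglitazone, Nid1 fell (-0.59 ± 0.14, adjusted p = 0.0260). Mme, the podocyte and tubule membrane peptidase neprilysin, rose with methylprednisolone (0.94 ± 0.22, adjusted p = 0.0124). These genes were named after their values were seen. Reck was above sham with methylprednisolone (0.82 ± 0.17, adjusted p = 0.00878) and with pioglitazone (0.77 ± 0.17, adjusted p = 0.0170).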
